A study of Rattus norvegicus with 16 samples.

Results

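The microRNAs (miRNAs) described here were rno-miR-99a and rno-miR-100 of the miR-99/100 family and rno-miR-125a-5p and rno-miR-125b-5p of the miR-125 family. They are 4 of the 677 rat miRNAs on the array and were read by 8 of its 1644 probes, each printed as 10 spots. They were chosen by name, as miRNAs that lie in genomic clusters with let-7 genes, and with the measured differences between the muscles already known. Their differences between the muscles are therefore a description, with no p-value, and counts of calls there are printed only beside the share over all miRNAs. Age effects carry the test of the fit. RNA came from hindlimb muscle of male Fischer 344 rats: the EDL (extensor digitorum longus), a mainly fast-twitch muscle, and the soleus, a mainly slow-twitch muscle. Young rats were 6 to 7 months old and old rats 25 to 28 months old, and no rat carried a transgene or a treatment according to the labels. Each of the 4 groups (young EDL, old EDL, young soleus, old soleus) had 4 single-colour arrays, 1 per sample, 16 in all. Nothing in the labels says that the samples of a group came from separate animals. The p-values therefore rest on sample-to-sample spread alone, part of which may be technical.

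An miRNA pairs with target mRNAs mainly through its seed, bases 2 to 8 from the 5′ end, and lowers their translation or stability. The miR-100, let-7 and miR-125 genes form a cluster that has been kept across bilaterian animals; miR-125 is the vertebrate counterpart of the worm miRNA lin-4, which, like let-7, controls developmental timing. In mammals miR-99 and miR-100 are known to target Mtor, the kinase that couples growth signals to protein synthesis, and miR-125b to target Igf2, a growth factor of myoblast differentiation, in mouse. One strand of each hairpin (the guide) is loaded into the silencing complex, and the other (the passenger, marked * or -3p here) is mostly degraded.

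The mature sequences show what the members share and what sets the families apart; capitals mark the seed. They were taken from RefSeq (GRCr8), which matched 3 of the 4 members, and rno-miR-99a is named only. The first is the member of the miR-99/100 family, the next pair are the miR-125 members.
rno-miR-100: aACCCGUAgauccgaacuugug
rno-miR-125a-5p: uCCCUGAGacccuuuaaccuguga
rno-miR-125b-5p: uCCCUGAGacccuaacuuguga
The miR-125 members had the same seed and the same first 13 bases, and diverged after them; miR-125a-5p was 24 bases long and miR-125b-5p 22. The miR-100 seed differed from theirs, so these 3 sequences fall into 2 seed groups. For the cluster partners measured on the same arrays, the mature sequences were as follows.
rno-miR-99b: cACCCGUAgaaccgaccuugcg
rno-let-7c: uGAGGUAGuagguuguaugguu
rno-let-7a: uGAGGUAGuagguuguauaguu
rno-let-7e: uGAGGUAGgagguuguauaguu
miR-99b had the miR-100 seed and differed from miR-100 at 4 of 22 positions, while let-7a and let-7c differed at 1 position. Probes for such close sequences may share signal.

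The 3 clusters of hairpins lie on rat chromosomes 11, 8 and 1 in the RefSeq annotation. On chromosome 11 the order was Mir99a, Mirlet7c1 and Mir125b2, inside the long non-coding RNA gene LOC103693508. The miR-125b-5p printed above is at chr11:29732588-29732609 and let-7c at chr11:29688127-29688148, both on the plus strand of GRCr8. On chromosome 8 the order was Mir100, Mirlet7a-2 and Mir125b1, inside Mir100hgl and Lnc215, with miR-100 at chr8:50798307-50798328 and let-7a at chr8:50805219-50805240 (plus strand). On chromosome 1 the order was Mir99b, Mirlet7e and Mir125a, inside Spaca6, a gene of sperm-egg fusion. There miR-99b was at chr1:67350070-67350091, let-7e at chr1:67350243-67350264 and miR-125a-5p at chr1:67350689-67350712 (plus strand). miR-125b-5p comes from a hairpin on chromosome 11 and another on chromosome 8, and let-7a and let-7c also have hairpins elsewhere, so an array signal cannot be assigned to a single cluster for these.

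Arrays of soleus were dimmer than arrays of EDL. The 75th percentile by which arrays were scaled ranged from 589 to 1864 in EDL and from 290 to 681 in soleus, with 83 to 138 and 58 to 85 miRNAs well above background. All EDL arrays were on 1 slide, all young soleus arrays on another and all old soleus arrays on the other, so slide cannot be told apart from muscle, nor from age in soleus. The EDL slide held the ages in separate columns, so age and column cannot be told apart in EDL. In whole muscle, fewer cells of a type and less RNA per cell cannot be told apart. miR-99a and miR-125b-5p were well above background on all 16 arrays. miR-100 and miR-125a-5p were so on 13 of 16, and were not well above background on young soleus 7, old soleus 1 and old soleus 2 (arrays carry the numbers of the source labels, 7 to 10 for young and 1 to 4 for old). Levels below are log2 of the processed signal divided by that array's percentile, so 0 is the percentile itself; no member was at the floor of -4.88 on any array. Because each probe has its own brightness, levels are compared between samples within an miRNA, never between miRNAs.

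At both ages and with the scaling used here, all 4 members stood lower in soleus than in EDL. The differences were larger in the miR-99/100 family than in the miR-125 family. Some other settings changed this, as given below. In young soleus miR-100 and miR-99a were 1.98- and 1.75-fold lower than in young EDL, and miR-125a-5p and miR-125b-5p 1.38- and 1.36-fold lower. No member passed the test for age in either muscle. The values of each array follow, member by member.

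miR-99a stood in young EDL 7, 8, 9 and 10 at -1.19, -1.20, -1.52 and -0.92. In old EDL 1, 2, 3 and 4 it stood at -1.07, -0.99, -1.26 and -1.11. The old EDL values lay inside the young range, with young EDL 9 the lowest and young EDL 10 the highest of the 8 EDL arrays. In young soleus 7 to 10 the values were -2.09, -2.07, -1.89 and -2.02, and in old soleus 1 to 4 they were -2.23, -2.34, -2.05 and -1.94. Every soleus array lay below every EDL array, and the ages overlapped in both muscles. The group means were -1.21 ± 0.24 (SD, n = 4) in young EDL, -1.11 ± 0.12 in old EDL, -2.02 ± 0.09 in young soleus and -2.14 ± 0.18 in old soleus. The soleus minus EDL difference was -0.81 ± 0.12 (limma SE; 95% interval -1.06 to -0.56) in young rats, or 1.75-fold lower. In old rats it was -1.03 ± 0.12 (-1.29 to -0.78), or 2.05-fold lower. The order of levels was old EDL, young EDL, young soleus and old soleus, and only the middle step lay beyond the spread.

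miR-100 stood in young EDL 7 to 10 at -2.98, -3.03, -3.16 and -2.69, and in old EDL 1 to 4 at -2.99, -2.96, -3.25 and -2.95. Old EDL 3 was the lowest EDL array and lay apart from the other old EDL arrays. In young soleus 7 to 10 it stood at -4.18, -3.95, -3.83 and -3.86, and in old soleus 1 to 4 at -4.23, -4.38, -4.17 and -3.91. The lowest soleus values, in young soleus 7, old soleus 1 and old soleus 2, were those not well above background, and no soleus array reached an EDL value. Group means were -2.97 ± 0.20 in young EDL, -3.04 ± 0.15 in old EDL, -3.96 ± 0.16 in young soleus and -4.17 ± 0.20 in old soleus (SD, n = 4). Soleus minus EDL was -0.99 ± 0.12 (-1.25 to -0.73) in young rats, or 1.98-fold lower. It was -1.14 ± 0.12 (-1.40 to -0.87) in old rats, or 2.20-fold lower. Among the 114 miRNAs tested, 1 had a lower difference in young rats and 0 in old rats. From high to low the order was young EDL, old EDL, young soleus and old soleus, with the muscles apart and the ages overlapping.

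For miR-125a-5p the differences were smaller and the EDL and soleus arrays lay closer together. In young EDL 7 to 10 it stood at -3.81, -3.95, -3.99 and -3.76, and in old EDL 1 to 4 at -3.65, -3.93, -3.95 and -3.49. In young soleus 7 to 10 the values were -4.34, -4.21, -4.55 and -4.25, and in old soleus 1 to 4 they were -4.05, -4.47, -4.42 and -3.99. Within each age the muscles did not overlap, but the margin in old rats was small, between old soleus 4 at -3.99 and old EDL 3 at -3.95. Group means were -3.88 ± 0.11 in young EDL, -3.75 ± 0.22 in old EDL, -4.34 ± 0.15 in young soleus and -4.23 ± 0.25 in old soleus (SD, n = 4). Soleus minus EDL was -0.46 ± 0.13 (-0.75 to -0.18) in young rats and -0.48 ± 0.13 (-0.77 to -0.19) in old rats, 1.38- and 1.39-fold lower. Old EDL was the highest group, then young EDL, old soleus and young soleus, and young EDL 9 and old soleus 4 nearly met at -3.99.

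miR-125b-5p, well above background on every array, had the smallest group spread in soleus. In young EDL 7 to 10 it stood at 0.51, 0.41, 0.28 and 0.60, and in old EDL 1 to 4 at 0.35, 0.31, 0.30 and 0.45. In young soleus 7 to 10 it stood at -0.02, 0.01, 0.02 and 0.04, and in old soleus 1 to 4 at -0.17, -0.21, -0.12 and -0.04. Each soleus array was below each EDL array, and within soleus each old array was below each young array. Group means were 0.45 ± 0.14 in young EDL, 0.35 ± 0.07 in old EDL, 0.01 ± 0.03 in young soleus and -0.14 ± 0.07 in old soleus (SD, n = 4). Soleus minus EDL was -0.44 ± 0.06 (-0.57 to -0.31) in young rats, or 1.36-fold lower, and -0.49 ± 0.06 (-0.62 to -0.36) in old rats, or 1.40-fold lower. The order was young EDL, old EDL, young soleus and old soleus, and the EDL groups overlapped.

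**Figure D1:**
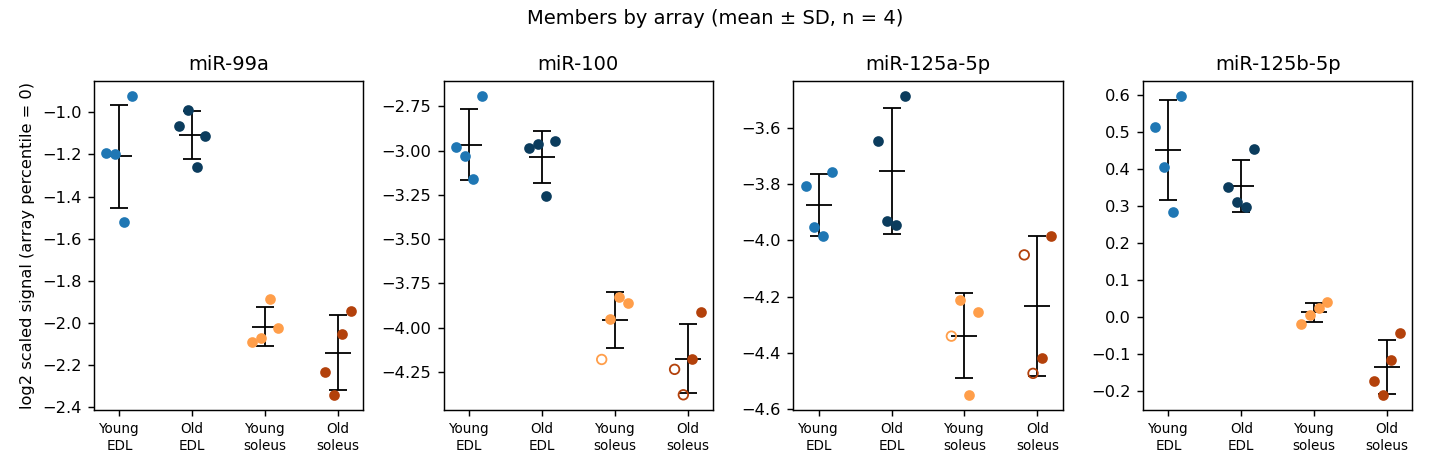
Log2 scaled signal (y axis, array percentile = 0) of each member on each of the 16 arrays by group (x axis); bars are mean ± SD of 4 arrays, and open points were not well above background. Soleus points lie below EDL points of the same age for all 4 members, and the y axes differ between panels.

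The muscle differences were set against the array as a whole. At an adjusted p under 0.05, 23.7% of the 114 tested miRNAs were called lower in soleus in young rats and 32.5% in old rats, the 4 members among them at both ages. The muscles did not overlap for 4 of 4 members at either age, against 35.1% of tested miRNAs in young and 52.6% in old rats. Since the members were chosen with these differences known, nothing is read from those counts. The median difference of the members was -0.64 in young and -0.76 in old rats, and that of all 114 tested miRNAs was 0.00 and -0.05. Among the 71 tested miRNAs never at the floor the medians were -0.07 and -0.19.

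The size of the muscle difference depended on how arrays were put on 1 scale. Another setting scaled by the labelling spike-in, the geometric mean of a pair of controls added during labelling. This mean was 149 to 563 on EDL and 47.4 to 155 on soleus arrays. With spike-in scaling the young value of each member moved up by the same 0.61, and that of each in old rats by 0.36. The shifts were equal because an array's values all move together. The smaller young values, those of miR-125a-5p and miR-125b-5p, then stood above 0 at 0.14 and 0.17, with the median of all tested miRNAs at 0.29, while young miR-99a stood at -0.20 and young miR-100 at -0.38. In old rats the spike-in values were -0.68 for miR-99a, -0.78 for miR-100, -0.12 for miR-125a-5p and -0.13 for miR-125b-5p. Normexp background correction models background from the spots' raw signal, and here a constant of 50 was then added to each spot. With it old miR-100 stood at 0.01 and old miR-125a-5p at 0.28, with SEs of 0.40 and 0.47. Old miR-99a and miR-125b-5p stayed negative there at -0.58 and -0.40. Beside this constant of 50, the processed signal of miR-100 was 19.92 to 26.6 on old soleus arrays. The part of the constant in these values was not tested. With quantile normalization the differences were -0.79 for miR-99a at both ages, -1.20 and -1.43 for miR-100, -0.62 and -0.74 for miR-125a-5p and -0.55 and -0.59 for miR-125b-5p. In old rats normexp moved miR-100 most (by 1.15) and miR-125b-5p least (by 0.08). The order of the families did not hold there, with old miR-100 at 0.01 and old miR-125b-5p at -0.40.

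**Figure D2:**
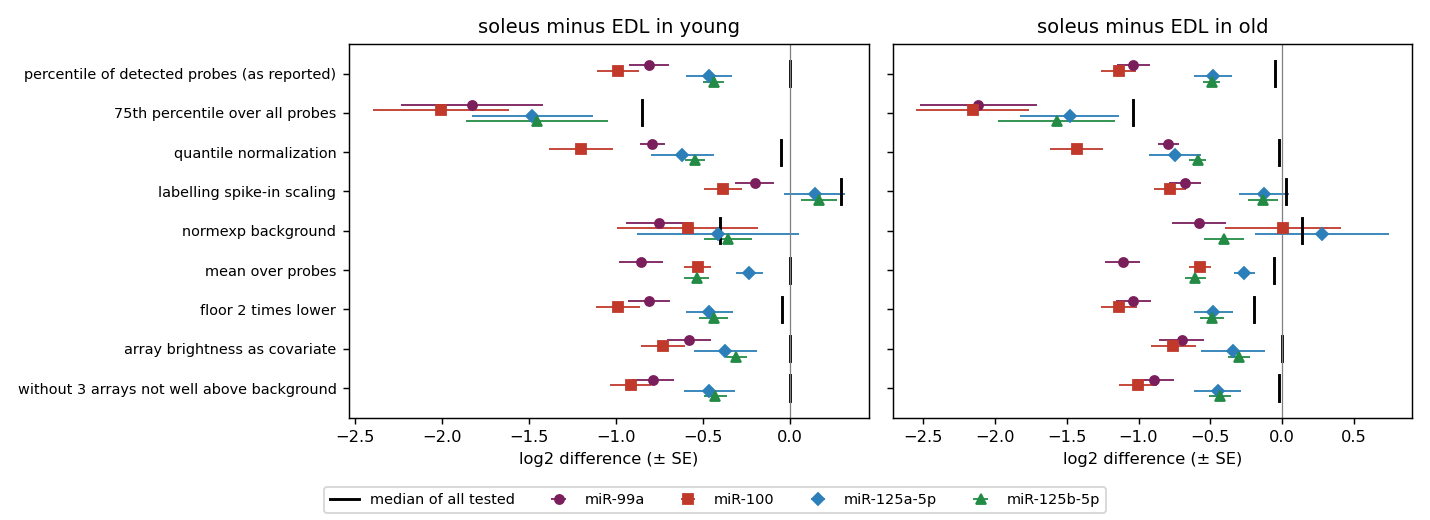
Log2 difference of soleus minus EDL (x axis, ± SE) of each member under the reported setting and 8 others (y axis), in young (left) and old (right) rats; black ticks are the median of all tested miRNAs. Under spike-in scaling young miR-125a-5p and miR-125b-5p lie at 0.14 and 0.17, left of the median of 0.29, and under normexp old miR-100 and miR-125a-5p lie at 0.01 and 0.28.

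Array brightness moved with muscle, and the members' raw signal rose with it. The processed signal of miR-125b-5p was 717.2 to 2661 on EDL and 285.9 to 692.1 on soleus arrays, and that of miR-100 was 65.77 to 237.4 and 16.02 to 47.92. Young EDL 9 was dimmer (percentile 589) than young soleus 9 and 10 (681 and 672). At that brightness miR-99a read 205.3 on young EDL 9 against 184.2 and 165.3 on the soleus arrays, and miR-100 read 65.77 against 47.92 and 46.2. miR-125b-5p read 717.2 against 692.1 and 691, and miR-125a-5p 37.19 against 29.09 and 35.24. The EDL array had the highest reading for each member, by margins as small as 717.2 against 692.1, and this is 1 array against 2. With array brightness as a covariate the young and old differences were -0.58 and -0.70 for miR-99a, -0.73 and -0.76 for miR-100, -0.37 and -0.34 for miR-125a-5p and -0.31 and -0.30 for miR-125b-5p.

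**Figure D3:**
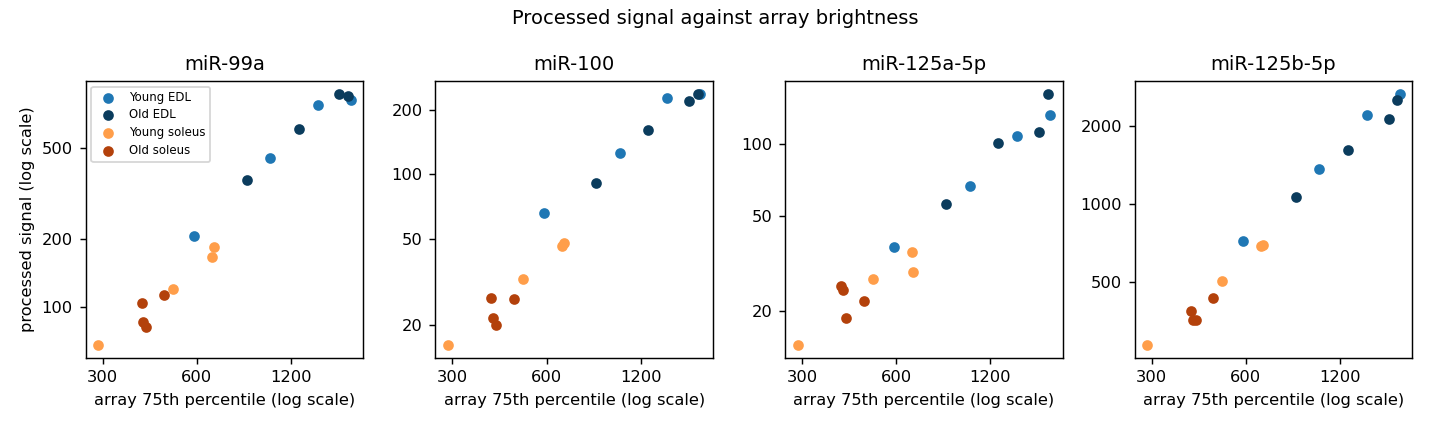
Processed signal of each member (y axis, log scale) against the array's 75th percentile (x axis, log scale), 1 point per array, coloured by group. Signal rises with array brightness in all panels, and the dimmest EDL array (589) lies above young soleus arrays of similar brightness (681 and 672).

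The comparison of old with young rats asks whether the members change with age in each muscle. In EDL 0 of 4 members passed an adjusted p of 0.05 in limma, where 12.3% of the tested miRNAs did, and 0 of 4 passed unadjusted, where 22.8% did. The log2 differences of old minus young EDL were 0.10 ± 0.12 for miR-99a (95% interval -0.15 to 0.35; limma adjusted p = 0.757) and -0.07 ± 0.12 for miR-100 (-0.33 to 0.19; adjusted p = 0.91). They were 0.12 ± 0.13 for miR-125a-5p (-0.17 to 0.41; limma adjusted p = 0.723) and -0.10 ± 0.06 for miR-125b-5p (-0.23 to 0.03; adjusted p = 0.379). Young and old EDL overlapped for all 4 members, against 12.3% of tested miRNAs that did not overlap. The sign of the small values was not stable: miR-99a fell below 0 (-0.21, -0.09 and -0.21) with the percentile over all probes, quantile normalization and normexp, and miR-125a-5p stood at -0.19 and -0.49 with the percentile over all probes and normexp.

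In soleus 0 of 4 members passed the adjusted p in limma, where 3.51% (4) of the 114 tested miRNAs did; without young soleus 7 that number was 26, still with no member. At an unadjusted p under 0.05, 1 member passed, miR-125b-5p, where 30.7% of tested miRNAs did. Its difference was -0.15 ± 0.06 (-0.28 to -0.02; unadjusted p = 0.0276, limma adjusted p = 0.125), and its old and young arrays did not overlap, as for 21.9% of tested miRNAs. miR-99a differed by -0.12 ± 0.12 (-0.38 to 0.13; limma adjusted p = 0.572) and miR-100 by -0.22 ± 0.12 (-0.48 to 0.04; adjusted p = 0.273). miR-125a-5p differed by 0.11 ± 0.13 (-0.18 to 0.39; limma adjusted p = 0.693). Young and old soleus overlapped for these 3. In fold terms the intervals of the 8 age effects ran from 0.716 (miR-100 in soleus) to 1.33 (miR-125a-5p in EDL).

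Of the 4 members, miR-125b-5p had the age value that shifted most in its call with scaling. With quantile normalization it fell with age by 0.25 in EDL (limma adjusted p = 0.00958) and by 0.29 in soleus (limma adjusted p = 0.00671). With spike-in scaling it stood at -0.15 in EDL (limma adjusted p = 0.576) and fell by 0.45 in soleus (limma adjusted p = 0.00401). In that setting 39 miRNAs were called in soleus, 38 of them lower, and the median of all shifted to -0.19; miR-100 fell by 0.52 (limma adjusted p = 0.00208) and miR-99a by 0.42 (limma adjusted p = 0.00961). Slide and age cannot be told apart in soleus, and the part of the slide in these values was not tested.

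The interaction asks whether the age effect differs between the muscles. It was called for 0 of 4 members in limma, where 0.877% (1) of the tested miRNAs were called, and 0 of 4 passed unadjusted, where 11.4% did. The difference of age effects, soleus minus EDL, was -0.23 ± 0.16 for miR-99a (limma adjusted p = 0.554) and -0.15 ± 0.17 for miR-100 (adjusted p = 0.795). It was -0.02 ± 0.19 for miR-125a-5p (limma adjusted p = 1) and -0.05 ± 0.08 for miR-125b-5p (adjusted p = 0.824). The 95% intervals held 0 for each and together ran from -0.58 (miR-99a) to 0.39 (miR-125a-5p). The median of the members was -0.10, beside -0.06 over all tested miRNAs and -0.10 over the 71 never at the floor.

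**Figure D4:**
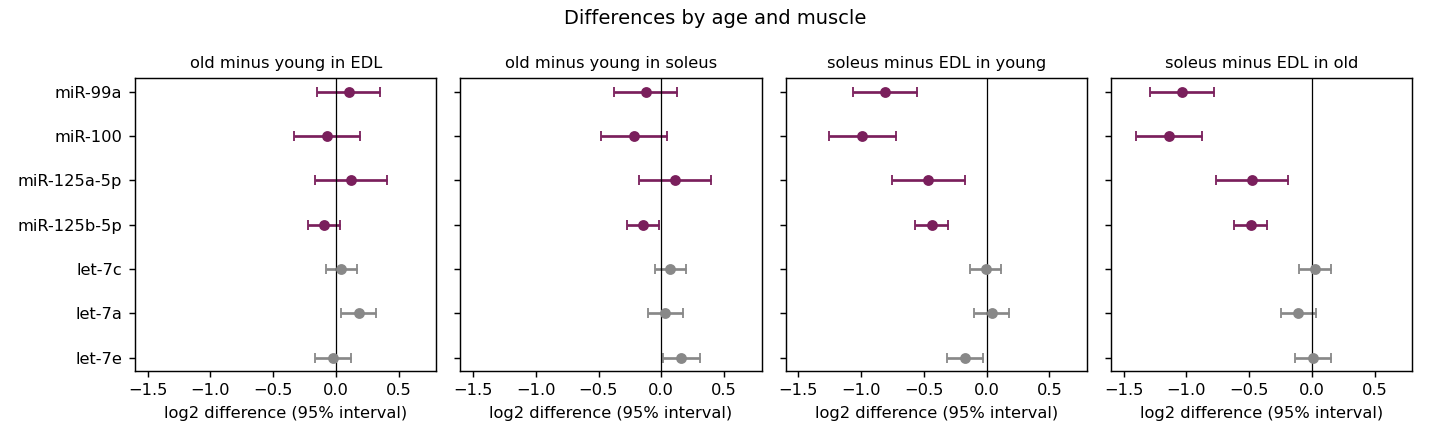
Log2 difference with its 95% interval (x axis) of the 4 members (purple) and 3 let-7 cluster partners (grey), in 4 panels for the age and muscle comparisons. The age intervals of the members lie within -0.48 to 0.41, and the muscle values of the members lie between -1.14 and -0.44 while those of the let-7 partners lie between -0.17 and 0.04.

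The other miRNAs of the same clusters were examined next. Of 19 names listed as partners or passenger strands, 13 were on the array and 4 were tested. All 9 passenger strands on the array were dim: 8 were never well above background, and miR-99a* was so on 1 array. The guide strands let-7a, let-7c and let-7e, which share the let-7 seed printed above and repress growth and cell cycle genes, were well above background on every array. Their soleus minus EDL differences in young and old rats were -0.01 ± 0.06 and 0.02 ± 0.06 for let-7c and 0.04 ± 0.07 and -0.11 ± 0.07 for let-7a. For let-7e they were -0.17 ± 0.07 and 0.01 ± 0.07. None of these let-7 partners passed the adjusted p in either muscle comparison in limma, with let-7e in young rats nearest. The partner list was chosen with earlier results known, so this is a description. For age, let-7a stood 0.18 ± 0.07 higher in old EDL (limma adjusted p = 0.121) and let-7e 0.16 ± 0.07 higher in old soleus (limma adjusted p = 0.125), and let-7c at 0.04 ± 0.06 in EDL and 0.07 ± 0.06 in soleus. No let-7 partner passed the adjusted p for age. miR-99b, which shares the miR-100 seed, was well above background on 6 EDL and 0 soleus arrays. Its processed signal was 11.8 to 60 on EDL and 4.49 to 13.2 on soleus arrays; its scaled signal was at the floor on all 16 arrays, so no fold is given.

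Subtracting 1 miRNA from another on the same array removes the scaling between arrays, and only changes of such a difference between groups are read. miR-99a minus let-7c, which share the cluster on chromosome 11, averaged -2.32 ± 0.17 in young EDL, -2.26 ± 0.16 in old EDL, -3.12 ± 0.09 in young soleus and -3.32 ± 0.18 in old soleus (SD, n = 4). The change from EDL to soleus was -0.80 in young and -1.06 in old rats, with no overlap. miR-125b-5p minus let-7c changed by -0.43 and -0.51, again with no overlap. Since miR-125b-5p and let-7c also have hairpins elsewhere, these changes are not those of the cluster alone. miR-100 minus let-7a of the chromosome 8 cluster went from -4.18 ± 0.11 in young EDL to -5.20 ± 0.12 in young soleus, and from -4.43 ± 0.11 to -5.46 ± 0.14 in old rats, a change of -1.03 at both ages with no overlap. miR-125a-5p minus let-7e of the chromosome 1 cluster changed by -0.29 in young and -0.49 in old rats with no overlap. As processed here, each member thus stood lower in soleus against its let-7 partner on the same array. Subtraction removes the scaling but not the handling of background, nor the constant added with normexp. With normexp the old muscle values of miR-100 and miR-125a-5p moved by 1.15 and 0.76, and these pairs were not computed in that setting.

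**Figure D5:**
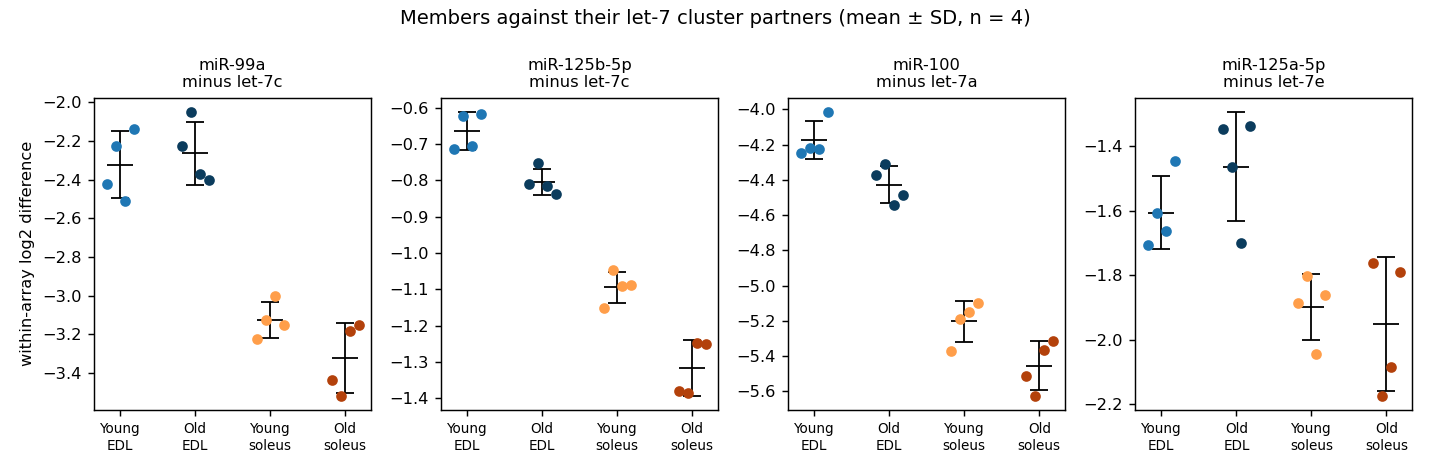
Within-array log2 difference (y axis) of each member minus its let-7 cluster partner on the 16 arrays by group (x axis), with mean ± SD of 4 arrays. Soleus points lie below EDL points of the same age in every panel, and for miR-125b-5p minus let-7c old points lie below young points in both muscles.

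Set against each other under the same processing, the families also changed unequally. miR-99a minus miR-125b-5p changed from EDL to soleus by -0.37 in young and -0.55 in old rats, and miR-100 minus miR-125b-5p by -0.55 and -0.65, all with no overlap. Within the miR-125 family the change was 0.03 and -0.01 for miR-125b-5p minus miR-125a-5p, and the groups overlapped at both ages. Within the miR-99/100 family miR-100 minus miR-99a changed by -0.18 in young rats with no overlap and by -0.10 in old rats with overlap. For age, young and old arrays overlapped in 12 of 16 comparisons (8 pairs in each muscle) and did not in 4. Among single tested miRNAs, 12.3% in EDL and 21.9% in soleus did not overlap. The pairs reuse the same miRNAs and the share over all possible pairs was not computed, so these counts are a description. They overlapped in both muscles for miR-99a minus let-7c, miR-125a-5p minus let-7e, miR-100 minus miR-99a and both miR-99/100 members minus miR-125b-5p. Only miR-125b-5p minus let-7c, of these pairs, had no overlap in both muscles. It stood at -0.71, -0.62, -0.71 and -0.62 in young EDL 7 to 10 and at -0.81, -0.75, -0.82 and -0.84 in old EDL 1 to 4, a change of -0.14. In soleus it stood at -1.15, -1.05, -1.09 and -1.09 in young and at -1.38, -1.39, -1.25 and -1.25 in old rats, a change of -0.22. All old arrays were below all young arrays of the same muscle in this pair. miR-100 minus let-7a changed with age by -0.25 in both muscles, without overlap in EDL and with overlap in soleus. miR-125b-5p minus miR-125a-5p changed with age by -0.22 in EDL without overlap and by -0.25 in soleus with overlap. These pairs were not tested.

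Each member was represented by the brighter of its 2 probes. The other miR-99a probe gave soleus minus EDL differences of -0.90 in young and -1.19 in old rats and age differences of 0.07 in EDL and -0.21 in soleus. The other miR-125b-5p probe gave -0.63 and -0.72 between the muscles, where the brighter probe gave -0.44 and -0.49. For age the other miR-125b-5p probe gave -0.06 and -0.15. For both miRNAs all 4 differences had the sign of the brighter probe. The size of the gap between miR-99a and miR-125b-5p thus depended on the probe. Its direction did not, as miR-99a had the lower muscle difference with either probe of each. The other probes of miR-100 and miR-125a-5p were at the floor on 13 and 15 arrays and carry no independent value.

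Over the 16 arrays, miR-99a and miR-100 moved most closely together of the 4 members, with a Pearson r of 0.982 for levels and 0.881 for deviations from the group means. For miR-125b-5p the r of levels was 0.953 with miR-99a and 0.977 with miR-100, and 0.806 and 0.81 for deviations. miR-125a-5p followed less closely, at 0.792 to 0.815 for levels and 0.279 to 0.596 for deviations. These values share the arrays, their scaling and their brightness, and levels also share the muscle difference. Probes for members of 1 family, such as miR-99a and miR-100, may also share signal, which was not tested. Likeness was measured against the 71 other tested miRNAs at the floor on fewer than 4 arrays. Those most like miR-99a in level were miR-150 (r = 0.945), miR-133a (0.938) and let-7i (0.924), and in deviation miR-16 (0.897), miR-26b (0.875) and miR-151 (0.858). For miR-100 they were miR-181a (0.954), miR-16 (0.948) and miR-30a (0.94) in level, and miR-21 (0.908), miR-26b (0.901) and let-7f (0.865) in deviation. For miR-125b-5p they were miR-16 (0.972), miR-181a (0.948) and miR-30a (0.93) in level, and miR-199a-3p (0.87), let-7a (0.865) and let-7i (0.862) in deviation. miR-125a-5p was most like miR-25 (0.816), let-7i (0.804) and miR-199a-5p (0.8) in level, and miR-199a-5p (0.809), miR-214 (0.782) and miR-146a (0.734) in deviation.

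The striated muscle miRNAs miR-1, miR-133a, miR-133b, miR-206 and miR-499 were all tested (the tissue named in the labels). Their summed scaled signal was 46.7 to 60.8 in EDL and 54.4 to 79.8 in soleus, and each such sum is weighted to its brightest probes. They went both ways from EDL to soleus. In young and old rats miR-1 changed by -0.49 and -0.77, miR-133a by -0.61 and -0.77 and miR-133b by 0.07 and -0.19. The changes were 3.52 and 1.98 for miR-206 and 3.77 and 3.35 for miR-499. Markers of other cells also differed between the muscles, in both directions. Of 6 mesenchymal markers, all tested, 5 were lower in young soleus and 3 in old soleus in limma, while miR-214 stood 0.24 higher in old soleus without a call. Over all tested miRNAs 23.7% and 32.5% were called lower, which also bears on the counts below. The summed scaled signal was 3.27 to 4.68 in young EDL, 3.71 to 4.69 in old EDL, 2.58 to 3.41 in young soleus and 2.55 to 2.84 in old soleus. Most of it was miR-22, with means of 3.32, 3.37, 2.60 and 2.07 in these groups. Both smooth muscle markers, miR-143 and miR-145, were lower in soleus at both ages, with sums of 0.621 to 0.849 in EDL and 0.41 to 0.597 in soleus. Of 2 endothelial markers, 0 were called lower in young and 1 in old soleus. However, miR-126* was at the floor on every array and could not be called. The other, miR-126, changed by -0.33 ± 0.13 in young and -0.48 ± 0.13 in old rats from EDL to soleus. Endothelial sums were 0.477 to 0.711 in EDL and 0.412 to 0.523 in soleus. Leukocyte markers, 2 of 4 tested, summed to 0.254 to 0.341 in EDL and 0.249 to 0.31 in soleus, and went opposite ways. miR-223 was higher in soleus by 0.95 ± 0.23 in young and 0.96 ± 0.23 in old rats. miR-150 fell by 0.31 in young and 0.73 in old rats from EDL to soleus. The marker lists were chosen with earlier results known, so the marker values and calls are a description. Of 2 erythroid markers 1 was tested, with sums of 0.0339 to 0.243 in EDL and 0.0339 to 0.122 in soleus. The 2 neural markers and the liver marker miR-122 were never well above background. The part of these cell types in the members' differences was not tested.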

How the data were processed

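Total RNA was labelled with Cy3 and hybridised to single-colour Agilent rat miRNA arrays, per the labels' protocols. Spot intensity values, as deposited, come from version 10.7.3.1 of Agilent's Feature Extraction (protocol miRNA_107_Sep09, grid on rn4) per the file headers, and from 10.7 per the submitters' processing notes. The processed signal, already background-treated by Feature Extraction, was used; 100% of the values in the authors' series table equalled it. Control and outlier spots (3.03%) were left out, 0 spots were saturated, and spots of a probe were averaged. A probe was well above background when more than 0.5 of its spots were flagged so. Signals were scaled by each array's 75th percentile over the 95 probes well above background on all 16 arrays, raised to a floor of 0.03389 and put on a log2 scale. The brightest probe represented an miRNA, and 114 well above background on 4 or more arrays were tested. They were fitted in 1 limma model (limma 3.58.1, R 4.3.3) over 4 groups, two-sided, with Benjamini-Hochberg adjustment over all 114 within each comparison at 0.05. The steps were tested on simulated data. Python 3.11.15, numpy 2.4.6, pandas 2.3.3 and matplotlib 3.10.9 drew the plots. The members, the partner and marker lists and the naming rule (members, partners, the 3 most alike miRNAs) were chosen with earlier results of these data known. Same-numbered EDL and soleus arrays were not taken as pairs, because the labels do not say that a number marks the same rat. Their deviations correlated at -0.562 to 0.581, and above 0.1 in 4 of 8. Deviations also share array brightness, so these correlations cannot decide the question. The number of arrays limits the precision.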

Additional observations from a re-analysis of the deposited data

Results flagged for a closer look

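Among the 16 sets of 4 arrays examined (4 members in 4 groups), 1 had an array far from the others: miR-100 in old EDL. Old EDL 3 stood at -3.25, and the other old EDL arrays at -2.99, -2.96 and -2.95, so its gap took up 0.874 of the range of the group, above the limit for a group of 4 in Dixon's test at the 95% level. Chance flags about 1 in 20 such sets. Without old EDL 3 the age difference of miR-100 in EDL was 0.0013 rather than -0.07.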

How the results depend on the processing

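Values are log2 differences or numbers of miRNAs called. Scaling by all probes gave 0 calls for age in either muscle and for the interaction, EDL age values of -0.21 (miR-99a) and -0.19 (miR-125a-5p), a soleus age value of -0.19 and an interaction of 1e-04 (both miR-125a-5p); the median of all miRNAs moved by -0.23, -0.24 and -0.11. Quantile normalization gave 22 calls for EDL age (10 higher, 12 lower; 14 as reported, 12 and 2), 12 for soleus age and 3 for the interaction, with -0.087 for miR-99a and -0.25 for miR-125b-5p in EDL, and -0.0083 for miR-125a-5p and -0.29 for miR-125b-5p in soleus. Spike-in scaling gave 8, 39 and 29 calls, soleus age values of -0.42 (miR-99a), -0.52 (miR-100), -0.45 (miR-125b-5p) and -0.19 (miR-125a-5p), an interaction of -0.48 (miR-99a), young muscle values of -0.20 (miR-99a), 0.14 (miR-125a-5p) and 0.17 (miR-125b-5p), and old ones of -0.12 (miR-125a-5p) and -0.13 (miR-125b-5p). Normexp gave 1, 0, 5 and 7 calls for EDL age, soleus age, young and old muscle. Its EDL age values were -0.21 (miR-99a) and -0.49 (miR-125a-5p), its soleus age value for miR-100 was 0.086, and its interactions were 0.18 (miR-99a), 0.60 (miR-100) and 0.69 (miR-125a-5p). Its young muscle values were -0.59 (miR-100), -0.41 (miR-125a-5p) and -0.35 (miR-125b-5p), and its old ones -0.58 (miR-99a), 0.0097 (miR-100), 0.28 (miR-125a-5p) and -0.40 (miR-125b-5p). Array brightness as a covariate gave 16 calls for soleus age, 2 for the interaction, 32 and 24 for young and old muscle, with -0.37 and -0.34 for miR-125a-5p there and interactions of 0.027 (miR-125a-5p) and 0.0092 (miR-125b-5p). A floor 2 times lower gave 8 calls for soleus age and 2 for the interaction. The mean over probes gave 1 for soleus age. No filter on dim probes gave 7, 1 and 32 calls for EDL age, soleus age and young muscle, where more miRNAs were tested, and young miR-125a-5p at -0.46. Without young soleus 7, old soleus 1 and old soleus 2, an alternative chosen after seeing the data that leaves fewer arrays, 8 and 7 miRNAs were called for soleus age and the interaction, miR-125a-5p had an interaction of 0.0135, and its old muscle value was -0.45. The cause of these shifts was not tested.

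Leaving out each array in turn gave 7 to 16 calls for EDL age, 1 to 26 for soleus age and 1 to 9 for the interaction (26 and 9 without young soleus 7). miR-99a in EDL ran from -0.0022 to 0.20, miR-100 in EDL from -0.14 to 0.020, the interaction of miR-125a-5p from -0.098 to 0.073 and that of miR-125b-5p from -0.10 to 0.0046. The members' muscle values ran from -1.22 to -0.39, a description, since the choice of members used them. Fits on the 8 arrays of a muscle alone changed no member's call for age. With the replicate number as a block 2 miRNAs were called for the interaction, and no member's call changed; 2 of 8 arrays correlated best with their own number. Dim signal limits miR-100 and miR-125a-5p, which were not well above background on 3 soleus arrays.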

Other observations

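The strand opposite to miR-125b-5p on chromosome 11 was also measured, and was chosen here after its values were seen. The hairpin Mir3588 overlaps Mir125b2, and the mature miRNA at chr11:29732588-29732609 on the minus strand of GRCr8 is the exact reverse complement of miR-125b-5p (22 bases, RefSeq).
rno-miR-3588: ucacaaguuagggucucaggga
Its probe was well above background on all 16 arrays. Its processed signal was 88.4 to 189 in young EDL, 85.9 to 135 in old EDL, 104 to 198 in young soleus and 69.1 to 106 in old soleus. After scaling, the mean log2 levels were -3.13 ± 0.70 in young EDL, -3.63 ± 0.41 in old EDL, -2.01 ± 0.99 in young soleus and -2.26 ± 0.37 in old soleus (SD, n = 4), with young soleus 7 the highest array at -0.55. Soleus minus EDL was 1.12 ± 0.46 in young rats and 1.37 ± 0.46 in old rats, the opposite sign to miR-125b-5p. This is a description without a p-value, and the processed signal overlapped between the muscles at both ages. The young and old values were 1.09 and 1.47 with quantile normalization and 1.73 and 1.73 with spike-in scaling. They were 0.43 and 0.94 with normexp and 0.10 and 0.29 with the percentile over all probes. With array brightness as a covariate they were -0.01 and -0.28.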
